A study of Homo sapiens with 58 samples.

Results

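The genes described here are 35 genes of the ATF4 and CHOP amino acid response. They form a list of integrated stress, amino acid synthesis and amino acid transport genes, chosen with earlier results of these data known. They were matched by symbol among the 60675 genes of the count table. All 35 had an identifier in the table, and 34 of them passed the filter on low counts that left 13945 genes to be tested. CHAC1, the glutathione-degrading enzyme gene often used to mark this response, was the member left out, with between 0 and 0.365 CPM, counts scaled to the size of the library, in any of them.

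ATF4 is a transcription factor that is made when kinases sensing amino acid shortage, heme shortage, double-stranded RNA or unfolded protein in the endoplasmic reticulum phosphorylate the initiation factor eIF2. Its translation rises while general protein synthesis falls, so its activity can change with little change in its messenger RNA. ATF4 then switches on genes for amino acid synthesis, amino acid uptake and transfer RNA charging, together with the regulators CHOP (gene DDIT3), ATF3 and TRIB3, and PPP1R15A, a subunit of the phosphatase that removes the phosphate from eIF2. In liver this program supports the supply of serine, glycine and asparagine and the sulfur amino acid route to glutathione.

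The messenger RNA came from HepG2, an established human cell line from a hepatocellular carcinoma, treated for 24 h with herbal extracts. The 58 libraries fell into 24 groups, of which 15 had 3 libraries, 4 had 2 and 5 had 1. Scutellariae Radix, Zingiberis Rhizoma (dried ginger), Zingiberis Rhizoma Recens (fresh ginger) and Pinelliae Tuber were ethanol extracts. The formulas Sayeok-tang and Bojungikgi-tang were made with hot water. Each was given at 500 µg/mL (high), 100 µg/mL (medium) and 20 µg/mL (low). Zizyphi Fructus, given at the same doses, and Coptidis Rhizoma, at 56 µg/mL (medium) and 11.2 µg/mL (low), were also ethanol extracts and had 1 library a group. The reference was the solvent vehicle with 3 libraries, given as 0.1% DMSO in the sample labels and as 2% in the series text. The labels give no DMSO content for the extract groups, so they do not show whether their solvent matched the vehicle. Groups of 2 libraries were those of Bojungikgi-tang at each dose and of Zingiberis Rhizoma at the high dose. Nothing in the labels says that libraries of a group came from separate cultures, so p-values measure the spread between these libraries, which may be technical.

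Libraries held 22143845 to 31859981 expected counts, with 24077535 to 26409029 in the vehicle libraries. The 8 hepatocyte markers, such as ALB and AFP, were all detected and summed to 28869 to 43175 CPM. The fibroblast markers summed to at most 1.41 CPM and the endothelial ones to at most 5.08 CPM. The 5 leukocyte markers summed to 1154 to 2325 CPM, and to 1294 to 1372 CPM in the vehicle libraries. Of these, 2 reached 1 CPM in some library, and PTPRC had no counts in any. The sample codes of the vehicle libraries begin with another number than those of every extract, so a difference from the vehicle and a difference between code numbers cannot be told apart. Comparisons of 2 doses of 1 extract, and of the extract pairs reported here, stayed within 1 code number. The third library of Scutellariae Radix low stood apart from its replicates, with a chi-square per gene of 17.2 and 13.69 against them. The third of Zingiberis Rhizoma low did so too, with 15.18 and 14.25. Other pairs of replicates reached at most 9.45. With the only library of Zizyphi Fructus low they are called the 3 libraries that stood apart, though that one had no replicate to be measured against. In bulk RNA a change per cell and a change in the mix of cells cannot be told apart.

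The element that ATF4 binds with C/EBP partners has the form TGATGNAA. It is shown here for the members whose element lay wholly before the gene start, whatever their response, and CHAC1 among them was not tested. Of the 35 members, 29 had an entry in the RefSeq promoter table (GRCh38.p14, 250 bases before to 50 bases after the gene start). On either strand TGATGNAA was found in a promoter of 8 of these 29 members (27.6%), against 1270 of all 35116 promoter entries in the table (3.62%). The stricter TGATGCAA, which TGATGNAA contains, was found in 4 of the 29 (13.8%), against 304 of all promoters (0.866%). The lines give 30 bases each, read 5′ to 3′ along the gene, with the 8 bases of the element in capitals. Matches in SLC7A1, SLC3A2 and SLC1A4 reached the gene start or lay beyond it and are not printed. Members were counted by gene and all promoters by entry, and the members were picked as genes of this response, so the shares are not a test. A match is a match of letters and says nothing of binding.
ASNS: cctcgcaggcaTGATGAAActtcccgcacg
ATF3: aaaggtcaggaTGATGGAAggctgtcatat
CEBPG: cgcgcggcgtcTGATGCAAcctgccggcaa
SLC1A5: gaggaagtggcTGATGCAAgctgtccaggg
CHAC1: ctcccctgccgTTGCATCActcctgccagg
The ASNS stretch lies at chr7:97872458-97872487 on the minus strand and starts its element at base -68 from the gene start, where it meets the first exon of some ASNS transcripts. The ATF3 stretch is at chr1:212565205-212565234 on the plus strand, with the element at -191 and no annotated gene there in GENCODE 29. The CEBPG stretch is at chr19:33374060-33374089 on the plus strand, with the element at -42, within the annotated gene and outside its exons. The SLC1A5 stretch is at chr19:46784893-46784922 on the minus strand, with the element at -97, partly within an exon. The CHAC1 stretch is at chr15:40953251-40953280 on the plus strand, carries the element on its other strand at -209 and lies in the first exon of the longer transcripts.

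In vehicle cells the members covered a wide range of levels. Per kilobase of annotated exon, SLC7A5, the large neutral amino acid transporter, averaged 167 ± 2.3 CPM, PSAT1, the serine synthesis aminotransferase, 149 ± 1.9 CPM, and ATF4 itself 133 ± 5.3 CPM (SD, n = 3). SLC38A2, a glutamine and alanine transporter, had 123 ± 2.3 CPM per kilobase on the same scale. At the other end, VLDLR, a lipoprotein receptor, had 0.29 ± 0.034 and ALDH1L2, a mitochondrial folate enzyme, 0.497 ± 0.047 CPM per kilobase. Most members were thus well above detection in vehicle-treated HepG2, and CHAC1 was close to 0. All levels that follow are CPM scaled by TMM and not divided by length.

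Across the extracts the response genes moved in distinct ways, as the heat map of all fold changes shows. Scutellariae Radix and both gingers at the high dose raised most members. Bojungikgi-tang and Pinelliae Tuber at the high dose lowered more members than they raised, and Sayeok-tang split the set. A gene was called at a Benjamini-Hochberg adjusted p below 0.05 over all tested genes in edgeR's quasi-likelihood test, and fold changes are log2 of the extract over the vehicle with their standard error unless another pair is named.

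**Figure D1:**
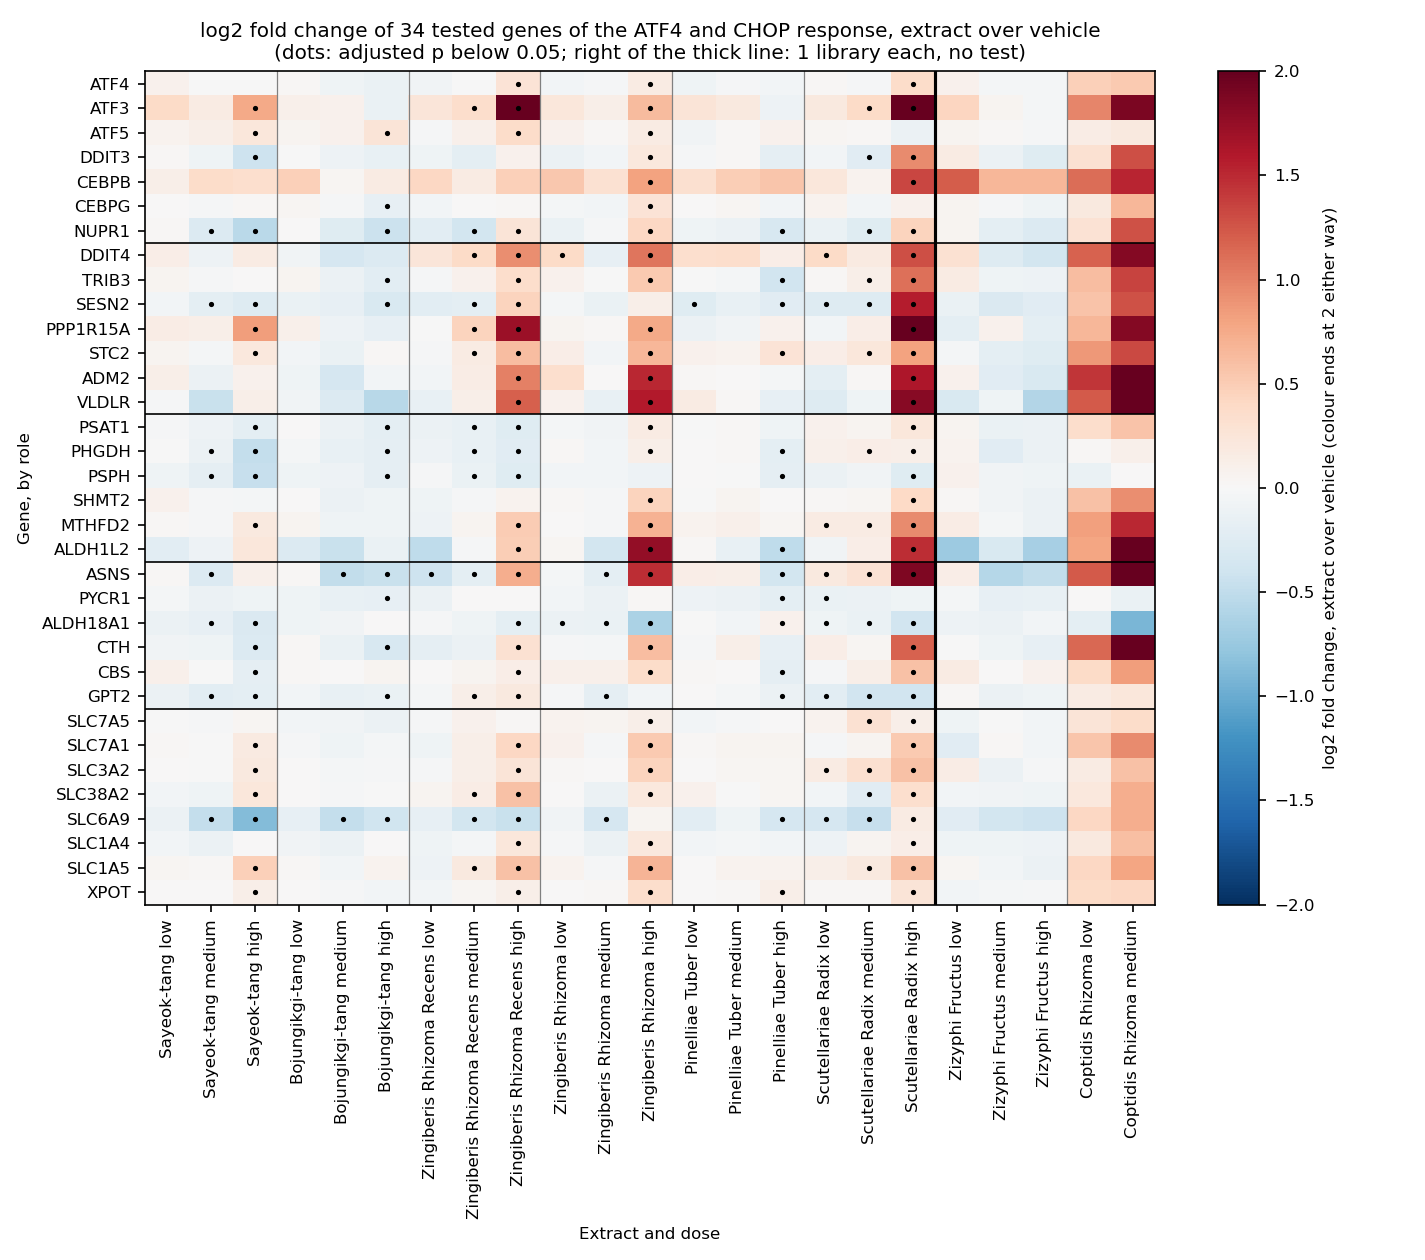
Each cell is the log2 fold change of a gene (rows, grouped by role) in an extract group (columns, dose rising to the right within an extract) over the vehicle; dots mark adjusted p below 0.05, and columns right of the thick line had 1 library and no test. Red columns at the high dose of Scutellariae Radix and both gingers and in Coptidis Rhizoma stand beside mostly pale or blue columns elsewhere.

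Scutellariae Radix at 500 µg/mL gave a broad rise. Of the 34 tested members, 28 rose and 3 fell, while 28.7% of all tested genes were called higher and 28.1% lower (56.7% either way). The median fold change of the members was 0.55, against a median of all genes between 0.00 and 0.01. All 7 tested stress effectors and all 8 transport genes rose, as did 5 of 7 transcription regulators, 5 of 6 serine and one carbon enzymes and 3 of 6 other amino acid enzymes.

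Among the regulators, ATF3, a repressor and activator of stress genes, had 32.4, 30 and 30.2 CPM in the Scutellariae Radix high libraries, against 4.07, 4.35 and 3.74 CPM in the vehicle libraries (log2 fold change 2.93 ± 0.085, adjusted p = 1.7e-30). CHOP's gene DDIT3, which drives the later and pro-death part of the response, had 23.9, 21.9 and 25.9 CPM, against 13, 11.8 and 12.4 CPM in vehicle (0.95 ± 0.073, adjusted p = 2.5e-15). CEBPB, a C/EBP factor that pairs with ATF4, had 59.1, 67.9 and 78.8 CPM, against 26.4, 24.8 and 30.4 CPM in vehicle (1.33 ± 0.19, adjusted p = 8.5e-08). Each extract library was above each vehicle library for these 3 genes. ATF4 messenger RNA itself rose less, with 438, 416 and 447 CPM against 342, 319 and 342 CPM in vehicle (0.37 ± 0.048, adjusted p = 5.3e-09). The other regulators included ATF5, at -0.11 ± 0.059, and CEBPG, at 0.08 ± 0.044, both with an adjusted p of 0.1.

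The largest rise among the stress effectors was that of PPP1R15A. It had 115, 98.6 and 108 CPM in the Scutellariae Radix high libraries, against 16.1, 15.9 and 17 CPM in vehicle (2.72 ± 0.067, adjusted p = 3e-33). SESN2, a leucine sensor that restrains mTORC1, had 76.4, 76.3 and 77.4 CPM, against 25.2, 27.9 and 24.2 CPM in vehicle (1.57 ± 0.05, adjusted p = 4.8e-29). TRIB3, a pseudokinase that feeds back on ATF4 and CHOP, had 304, 293 and 301 CPM, against 140, 136 and 142 CPM in vehicle (1.10 ± 0.042, adjusted p = 3.9e-26). All of these libraries lay outside the vehicle range. DDIT4, an inhibitor of mTORC1, rose by 1.29 ± 0.091, ADM2, a secreted peptide of the calcitonin family, by 1.61 ± 0.13, and VLDLR by 1.82 ± 0.15. One vehicle library had 43.3 CPM of DDIT4 and the others 30.1 and 29.3 CPM, so the vehicle level of DDIT4 is less sure than those of its neighbours.

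Amino acid enzymes divided into those that rose and a few that fell. ASNS, asparagine synthetase, had 158, 154 and 165 CPM in the Scutellariae Radix high libraries, against 42.2, 44.9 and 44.4 CPM in vehicle (1.86 ± 0.047, adjusted p = 1.1e-32). CTH, which makes cysteine from cystathionine, had 21.2, 19.4 and 19.9 CPM, against 9.26, 8.89 and 8.53 CPM in vehicle (1.18 ± 0.073, adjusted p = 1.6e-18). The folate enzyme ALDH1L2 had 11.4, 11 and 12.6 CPM, against 4.36, 4.54 and 3.78 CPM in vehicle (1.47 ± 0.11, adjusted p = 4.3e-15). These groups did not overlap. The serine synthesis enzyme PSAT1 rose by only 0.23 ± 0.037 (adjusted p = 1.2e-06). PSPH, the last enzyme of serine synthesis, fell by 0.25 on the log2 scale (adjusted p = 2.4e-06). ALDH18A1, which opens proline synthesis from glutamate, had 253, 243 and 247 CPM, against 314, 323 and 329 CPM in vehicle (-0.38 ± 0.029, adjusted p = 1.7e-15). The alanine aminotransferase GPT2 averaged 215 ± 3.2 CPM, against 280 ± 3 CPM in vehicle (SD, n = 3 each), a change of the same size (-0.38 ± 0.038). The transport genes rose by 0.12 to 0.58, with SLC7A5 at the low end (0.12 ± 0.042, adjusted p = 0.015). That call was lost without the third vehicle library or without the first Scutellariae Radix high library.

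Zingiberis Rhizoma, dried ginger, at 500 µg/mL also gave a broad rise. Of the 34, 28 rose and 1 fell, while 23.3% of all tested genes were called higher and 22.8% lower. Its median member fold change was 0.39. All 7 regulators rose, as did 6 of 7 stress effectors, 5 of 6 serine and one carbon enzymes, 3 of 6 other amino acid enzymes and 7 of 8 transport genes.

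ALDH1L2 had the largest rise in dried ginger, with 14.9 and 13.7 CPM in the 2 extract libraries, against 4.36, 4.54 and 3.78 CPM in vehicle (1.76 ± 0.12, adjusted p = 2.8e-16). VLDLR had 8.86 and 7.45 CPM, against 2.88, 2.34 and 2.91 CPM in vehicle (1.59 ± 0.16, adjusted p = 3.9e-11). ASNS had 116 and 128 CPM, against 42.2, 44.9 and 44.4 CPM in vehicle (1.47 ± 0.052, adjusted p = 6.8e-27). For these genes the extract libraries were well above the vehicle libraries and did not overlap with them. ADM2 rose by 1.51 ± 0.14, DDIT4 by 1.07 ± 0.1, PPP1R15A by 0.76 ± 0.08 and MTHFD2, a mitochondrial one carbon enzyme, by 0.69 ± 0.046. ALDH18A1 was the member that fell, with 205 and 211 CPM, against 314, 323 and 329 CPM in vehicle (-0.63 ± 0.033, adjusted p = 7.6e-21).

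ATF4 and DDIT3 had small changes in dried ginger. ATF4 had 382 and 368 CPM, against 342, 319 and 342 CPM in vehicle (0.16 ± 0.053, adjusted p = 0.01), and this call was lost without the second vehicle library or the extract library numbered 1. DDIT3 had 15.1 and 13.6 CPM, against 13, 11.8 and 12.4 CPM in vehicle (0.21 ± 0.087, adjusted p = 0.047). That call was lost under DESeq2, without the filter, without the second or the third vehicle library and without the extract library numbered 1. CEBPB had 39.4 and 55.9 CPM, against 26.4, 24.8 and 30.4 CPM in vehicle (0.81 ± 0.22, adjusted p = 0.0021), and lost its call without the extract library numbered 2. TRIB3 rose by 0.53 ± 0.047 and PSAT1 by 0.16 ± 0.041.

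Zingiberis Rhizoma Recens, fresh ginger, at 500 µg/mL raised 23 members and lowered 5, while 24.3% of all tested genes were called higher and 23.6% lower. The median member fold change was 0.28. All 7 stress effectors rose, with 4 of 7 regulators, 6 of 8 transport genes, 4 of 6 other amino acid enzymes and only 2 of 6 serine and one carbon enzymes.

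ATF3 had 16.7, 17 and 17.6 CPM in the fresh ginger libraries, against 4.07, 4.35 and 3.74 CPM in vehicle (2.07 ± 0.089, adjusted p = 6.8e-24). PPP1R15A had 60.2, 47.8 and 53 CPM, against 16.1, 15.9 and 17 CPM in vehicle (1.71 ± 0.068, adjusted p = 4.4e-25). ASNS had 69.8, 75.9 and 72.3 CPM, against 42.2, 44.9 and 44.4 CPM in vehicle (0.73 ± 0.049, adjusted p = 4.7e-17). None of these libraries overlapped with the vehicle ones. VLDLR rose by 1.19 ± 0.15, ADM2 by 1.01 ± 0.13, and the glutamine transporters SLC38A2 and SLC1A5 by 0.59 ± 0.043 and 0.59 ± 0.044. DDIT3 had 12.6, 13 and 13.6 CPM and overlapped with the vehicle libraries (0.08 ± 0.078, adjusted p = 0.43), and ATF4 rose by 0.27 ± 0.048 (adjusted p = 6e-06). The 3 enzymes of serine synthesis fell together. PSAT1 had 256, 287 and 285 CPM, against 328, 329 and 321 CPM in vehicle (-0.24 ± 0.037, adjusted p = 6.3e-07). PHGDH, the first enzyme of that route, changed by -0.23 ± 0.035 and PSPH by -0.24 ± 0.043. The glycine transporter SLC6A9 fell by 0.44 on the log2 scale, with 16.9, 13.9 and 13.6 CPM against 20.7, 18 and 21.5 CPM in vehicle.

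Dried and fresh ginger were set against each other at the same dose, within 1 code number. Dried ginger was higher for 16 of the 34 members and lower for 7, while 10.2% of all tested genes were called higher and 13.2% lower. The members' median difference, dried over fresh, was 0.15. All 6 serine and one carbon enzymes were higher in dried ginger. ALDH1L2 had 14.9 and 13.7 CPM in dried ginger, against 4.8, 6.47 and 6.48 CPM in fresh ginger (1.27 ± 0.12, adjusted p = 9.2e-12). PSAT1 had 362 and 368 CPM in dried ginger, against 256, 287 and 285 CPM in fresh ginger (0.40 ± 0.041, adjusted p = 1.3e-10). ASNS was also higher in dried ginger (0.75 ± 0.05, adjusted p = 5.5e-16), as was SLC6A9 (0.50 ± 0.073, adjusted p = 7.1e-07). For these genes every dried ginger library was above every fresh ginger library.

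ATF3 and PPP1R15A went the other way. ATF3 had 6.32 and 6.35 CPM in dried ginger, against 16.7, 17 and 17.6 CPM in fresh ginger (-1.43 ± 0.096, adjusted p = 5.2e-16). PPP1R15A had 29 and 26.3 CPM, against 60.2, 47.8 and 53 CPM in fresh ginger (-0.96 ± 0.074, adjusted p = 3.5e-14). SESN2 (-0.32 ± 0.059), SLC38A2 (-0.38 ± 0.049) and ALDH18A1 (-0.44 ± 0.033) were lower in dried ginger too. The difference in ATF4 was -0.11 ± 0.054 (adjusted p = 0.15) and that in DDIT3 0.13 ± 0.086 (adjusted p = 0.31), and neither passed the test. The call for ATF5 was lost in some repeats that left out 1 library.

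**Figure D2:**
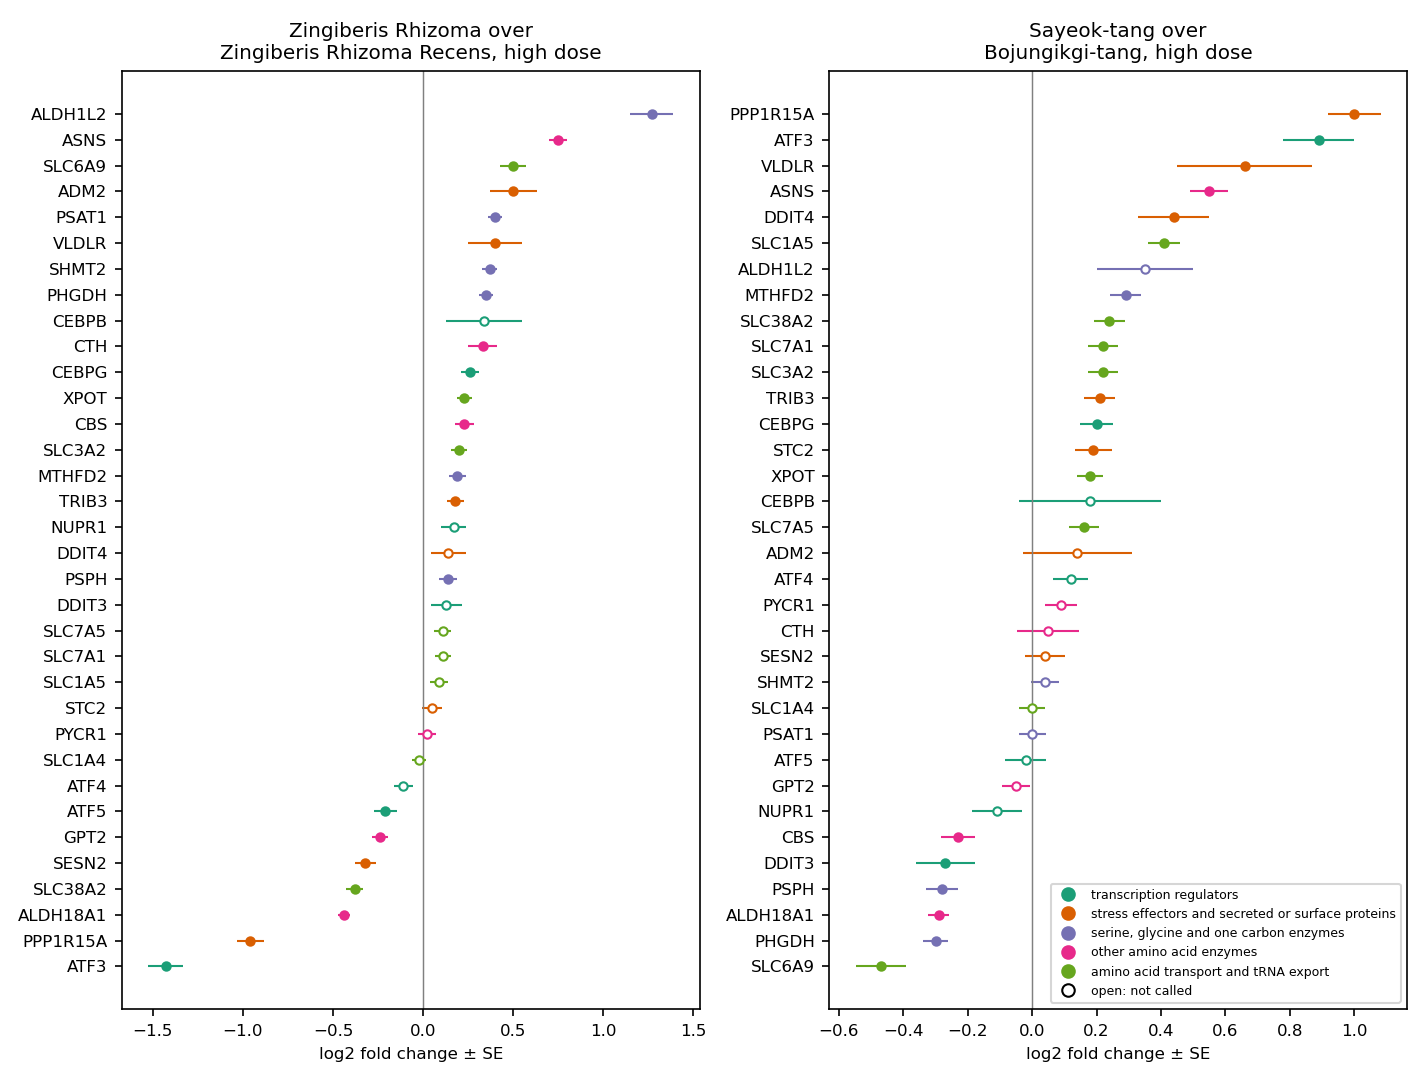
Log2 difference of each tested gene with its standard error, for dried over fresh ginger (left) and Sayeok-tang over Bojungikgi-tang (right) at the high dose, coloured by role; open points were not called. In the left panel ALDH1L2 and ASNS head the genes higher in dried ginger and ATF3 and PPP1R15A those lower; in the right panel PPP1R15A and ATF3 lead and SLC6A9 is lowest.

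Sayeok-tang at 500 µg/mL raised 10 members and lowered 11, while 20.3% of all tested genes were called higher and 19.9% lower (40.2% either way), and the members' median was 0.04. Its rises included ATF3, PPP1R15A and 5 of the 8 transport genes. PPP1R15A had 29.6, 30.9 and 26.8 CPM, against 16.1, 15.9 and 17 CPM in vehicle (0.83 ± 0.071, adjusted p = 2.3e-13). ATF3 had 6.63, 6.82 and 7.16 CPM, against 4.07, 4.35 and 3.74 CPM in vehicle (0.76 ± 0.098, adjusted p = 1.8e-08). SLC1A5 rose by 0.48 ± 0.044. The libraries of both groups stood apart for these genes.

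The falls in Sayeok-tang included serine synthesis enzymes, the glycine transporter and regulators such as DDIT3. SLC6A9 had 11.3, 11.9 and 9.87 CPM, against 20.7, 18 and 21.5 CPM in vehicle (-0.87 ± 0.068, adjusted p = 1.2e-14). PHGDH had 99.1, 94.2 and 101 CPM, against 135, 137 and 139 CPM in vehicle (-0.48 ± 0.035, adjusted p = 1.2e-15), and PSPH changed by -0.46 ± 0.044. DDIT3 had 8.78, 9.3 and 9.77 CPM, against 13, 11.8 and 12.4 CPM in vehicle (-0.41 ± 0.081, adjusted p = 5.3e-05). All Sayeok-tang high libraries were below all vehicle libraries for these genes. NUPR1, a small stress-induced chromatin protein, fell by 0.54 on the log2 scale. ATF4 (-0.01 ± 0.048), TRIB3 (adjusted p = 0.95) and ASNS (0.10 ± 0.05, adjusted p = 0.12) did not pass the test. The call for CTH was lost without the first extract library.

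Bojungikgi-tang at 500 µg/mL raised 1 member, ATF5 (0.25 ± 0.064, adjusted p = 0.014), and lowered 12, while 2.24% of all tested genes were called higher and 2.31% lower (4.55% either way). The members' median was -0.14. ASNS had 31.4 and 32.9 CPM, against 42.2, 44.9 and 44.4 CPM in vehicle (-0.45 ± 0.06, adjusted p = 1.1e-06). NUPR1 had 14.1 and 15.2 CPM, against 21.5, 18.5 and 19.3 CPM in vehicle (-0.43 ± 0.076, adjusted p = 0.0002), and SLC6A9 14.6 and 15.7 CPM, against 20.7, 18 and 21.5 CPM in vehicle (-0.40 ± 0.074, adjusted p = 0.00038). The calls for these 3 genes held whichever library was left out. PSAT1 (-0.19 ± 0.042), PHGDH (-0.18 ± 0.039) and PSPH (-0.18 ± 0.049) fell, as did TRIB3 (-0.21 ± 0.048). The total of 13 called members became 7 without the first vehicle library, 8 without the third, 5 without the extract library numbered 2 and 8 without that numbered 3, where the lone extract library is assumed to vary like the other groups. CTH and CEBPG lost their calls in each of these repeats, ATF5 in those without the first vehicle library or the extract library numbered 2, and TRIB3, PSAT1 and PSPH in that without the extract library numbered 2.

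The formulas were also compared directly, and 21 of the 34 members differed. Sayeok-tang was higher for 15 members and lower for 6, while 13.2% of all tested genes were called higher and 13% lower. PPP1R15A had 29.6, 30.9 and 26.8 CPM in Sayeok-tang, against 14.2 and 14.9 CPM in Bojungikgi-tang (1.00 ± 0.082, adjusted p = 2.1e-13). ATF3 had 6.63, 6.82 and 7.16 CPM, against 3.74 and 3.69 CPM in Bojungikgi-tang (0.89 ± 0.11, adjusted p = 3.7e-08), and ASNS 45.8, 46 and 48.8 CPM, against 31.4 and 32.9 CPM in Bojungikgi-tang (0.55 ± 0.059, adjusted p = 5.4e-10). No library of one formula fell within the range of the other for these genes. SLC6A9 (-0.47 ± 0.078), PHGDH (-0.30 ± 0.039) and ALDH18A1 (-0.29 ± 0.032) were lower in Sayeok-tang. PSAT1 did not pass the test (adjusted p = 0.95), at 288, 278 and 290 CPM in Sayeok-tang, against 284 and 288 CPM in Bojungikgi-tang. The 21 called members became 13 without the Bojungikgi-tang library numbered 2.

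Pinelliae Tuber at 500 µg/mL raised 3 members and lowered 11, while 9.14% of all tested genes were called higher and 6.57% lower, and the members' median was -0.06. TRIB3 had 104, 104 and 112 CPM, against 140, 136 and 142 CPM in vehicle (-0.39 ± 0.043, adjusted p = 5.2e-09). ASNS had 33.7, 35 and 33.9 CPM, against 42.2, 44.9 and 44.4 CPM in vehicle (-0.36 ± 0.052, adjusted p = 2e-06). SLC6A9 (-0.33 ± 0.064) and NUPR1 (-0.32 ± 0.066) fell as well. The extract and vehicle libraries did not overlap for these genes. ALDH1L2 fell by 0.51 on the log2 scale, with 2.96 ± 0.047 CPM against 4.23 ± 0.4 CPM in vehicle (SD, n = 3 each), under the 5 CPM set for named genes, and was chosen after its value was seen. The members that rose were STC2, a secreted glycoprotein (0.27 ± 0.05), XPOT, the transfer RNA exporter (0.12 ± 0.036), and ALDH18A1 (0.09 ± 0.028, adjusted p = 0.029). Those of XPOT and ALDH18A1, and the fall of GPT2, were each lost in some repeats without 1 library. ATF4 (-0.06 ± 0.048), DDIT3 (-0.18 ± 0.079) and SLC7A5 did not pass the test.

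Scutellariae Radix and Pinelliae Tuber share a code number and were compared at 500 µg/mL. Scutellariae Radix was higher for 30 of the 34 members and lower for 3, while 27.2% of all tested genes were called higher and 28.7% lower. The members' median difference was 0.52. TRIB3 had 304, 293 and 301 CPM in Scutellariae Radix, against 104, 104 and 112 CPM in Pinelliae Tuber (1.49 ± 0.042, adjusted p = 8.5e-31). ASNS differed by 2.22 ± 0.048, ATF3 by 3.03 ± 0.085 and PPP1R15A by 2.63 ± 0.066. DDIT3 differed by 1.13 ± 0.073 and ATF4 by 0.43 ± 0.048. ALDH18A1 (-0.46 ± 0.028), GPT2 (-0.27 ± 0.038) and ATF5 (-0.19 ± 0.058) were the 3 lower in Scutellariae Radix. No vehicle library entered this contrast.

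**Figure D3:**
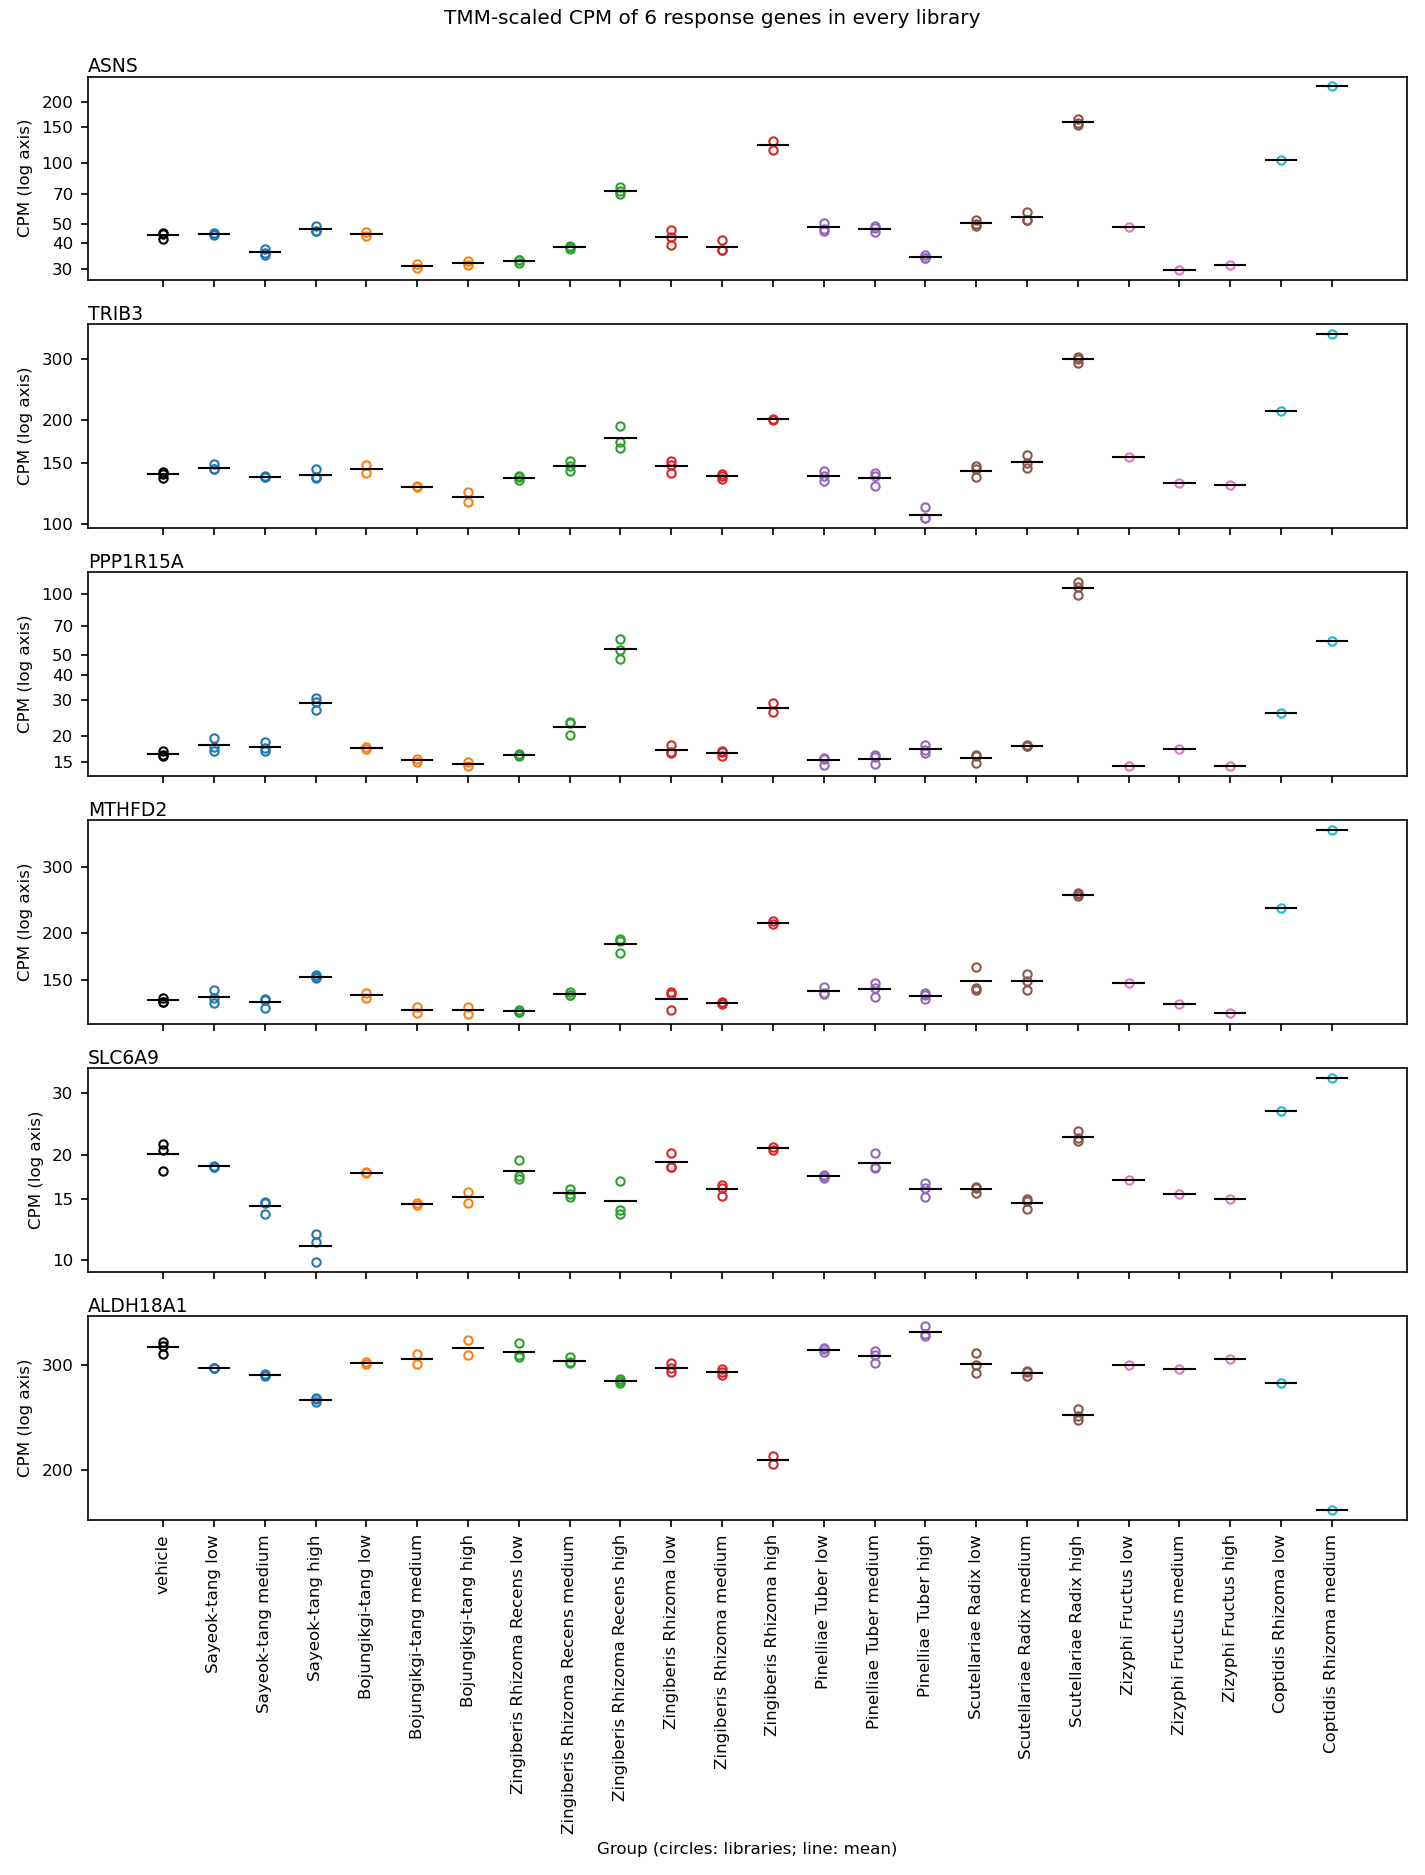
TMM-scaled CPM of 6 response genes in every library on log axes, with the vehicle at the left, doses rising within each extract, circles for libraries and a line at the group mean. ASNS is above 69 CPM in the high dose of both gingers, in Scutellariae Radix high and in Coptidis Rhizoma, and SLC6A9 is below most vehicle libraries in most groups.

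Levels differed with dose, and for several genes a lower dose was called in the other direction than the high one. ASNS averaged 43.8 ± 1.4 CPM in vehicle and, with Scutellariae Radix, 50.3 ± 1.9 CPM at the low, 53.8 ± 2.7 CPM at the medium and 159 ± 5.7 CPM at the high dose (SD, n = 3 each). With fresh ginger it averaged 32.8 ± 0.71, 38.2 ± 0.54 and 72.7 ± 3.1 CPM at the low, medium and high dose. The low and medium doses of fresh ginger were called below the vehicle (-0.42 ± 0.052, adjusted p = 2e-06 and -0.20 ± 0.052, adjusted p = 0.0075), and the high dose above it. Dried ginger gave 42.8 ± 3.6, 38.5 ± 2.5 and 122 ± 8.3 CPM at the low, medium and high dose, with the medium dose called lower (-0.19 ± 0.051, adjusted p = 0.048). Bojungikgi-tang gave 44.6 ± 1.6, 31 ± 1.1 and 32.2 ± 1 CPM in that order. Sayeok-tang gave 44.5 ± 0.6, 36.1 ± 1.2 and 46.9 ± 1.7 CPM, and its medium dose was called lower (-0.28 ± 0.052, adjusted p = 0.0005). Over the 18 comparisons of a replicated extract dose with the vehicle, which share their vehicle libraries, ASNS was called higher in 5 and lower in 7.

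At the medium dose Scutellariae Radix raised 9 members and lowered 7, while 8.99% of all tested genes were called higher and 9.33% lower. SLC7A5 had 974, 997 and 954 CPM, against 792, 804 and 782 CPM in vehicle (0.30 ± 0.042, adjusted p = 5e-07). SLC3A2, its heavy chain partner, rose by 0.32 ± 0.041. SLC6A9 fell by 0.46 and GPT2 by 0.39 on the log2 scale, and DDIT3 had 10.5, 10.1 and 11 CPM, against 13, 11.8 and 12.4 CPM in vehicle (-0.23 ± 0.08, adjusted p = 0.036). DDIT3 and SLC6A9 were thus below vehicle at this dose and above it at the high dose, with no overlap of libraries at either. At the low dose 4 members rose and 5 fell, while 5.44% of all tested genes were called higher and 4.87% lower, and 8 were called without the 3 libraries that stood apart. When the fit held just these libraries and vehicle, 2 were called, both lower. ASNS (0.20 ± 0.05) and SLC3A2 (0.16 ± 0.041) were among those that rose.

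Fresh ginger at the medium dose raised 7 members and lowered 7, while 6.63% of all tested genes were called higher and 4.66% lower. PPP1R15A had 23.5, 23.1 and 20.2 CPM, against 16.1, 15.9 and 17 CPM in vehicle (0.45 ± 0.073, adjusted p = 1.8e-05). SLC6A9 and NUPR1 fell by 0.37 and 0.36 on the log2 scale. The 14 called members became 9 without the first or without the second vehicle library. At the low dose ASNS was the 1 member called, and it was lower, while 0.509% of all tested genes were called higher and 0.0932% lower. The count was 3 without the third vehicle library and 2 without the first library of that group. Dried ginger at the medium dose raised none and lowered 4 (SLC6A9, ASNS, GPT2 and ALDH18A1), while 0.703% were called higher and 0.746% lower, and none stayed called without the third vehicle library. At the low dose DDIT4 rose and ALDH18A1 fell, while 1.69% were called higher and 0.43% lower. Neither was called without the first or the second vehicle library, without the third library of that group or without the 3 libraries that stood apart, and 1 member was called without the third vehicle library. Between the gingers at the medium dose, dried ginger was higher for 1 member, NUPR1 (0.33 ± 0.067), and lower for 7, while 2.85% of all tested genes were called higher and 4.31% lower. PPP1R15A had 16.8, 16 and 16.9 CPM in dried ginger at the medium dose, against 23.5, 23.1 and 20.2 CPM in fresh ginger (-0.42 ± 0.073, adjusted p = 4.7e-05).

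Sayeok-tang at the medium dose raised none and lowered 8 members, while 2.17% of all tested genes were called higher and 2.04% lower (4.22% either way). SLC6A9 had 13.6, 14.7 and 14.6 CPM, against 20.7, 18 and 21.5 CPM in vehicle (-0.48 ± 0.066, adjusted p = 3.3e-06). ASNS, NUPR1, GPT2, SESN2, PSPH, ALDH18A1 and PHGDH were the others. The count was 4 without the first vehicle library. Bojungikgi-tang at the medium dose lowered ASNS (31.7 and 30.2 CPM, against 42.2, 44.9 and 44.4 CPM in vehicle) and SLC6A9 (14.4 and 14.6 CPM, against 20.7, 18 and 21.5 CPM in vehicle) alone. That was 2 of 34 members, while 0.0215% of all tested genes were called higher and 0.043% lower. Only 1 stayed called without the extract library numbered 2.

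At the low doses of both formulas and the medium dose of Pinelliae Tuber, edgeR called 0 members. For Sayeok-tang low 0.0143% of all tested genes were called higher and 0.043% lower, 4 members had an unadjusted p below 0.05, and DESeq2 called 1. For Bojungikgi-tang low 0% of all tested genes were called either way, 4 members had an unadjusted p below 0.05, and DESeq2 called 0. For Pinelliae Tuber medium the shares were 0.122% higher and 0.165% lower, 6 members had an unadjusted p below 0.05, DESeq2 called 0, and 1 was called without the third vehicle library or the third library of that group. Pinelliae Tuber low had SESN2 lower (-0.24 ± 0.055, adjusted p = 0.035), while 0.237% of all tested genes were called higher and 0.0359% lower. No member was called there without the first vehicle library or without any 1 of the extract libraries, and 2 were called without the third vehicle library.

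**Figure D4:**
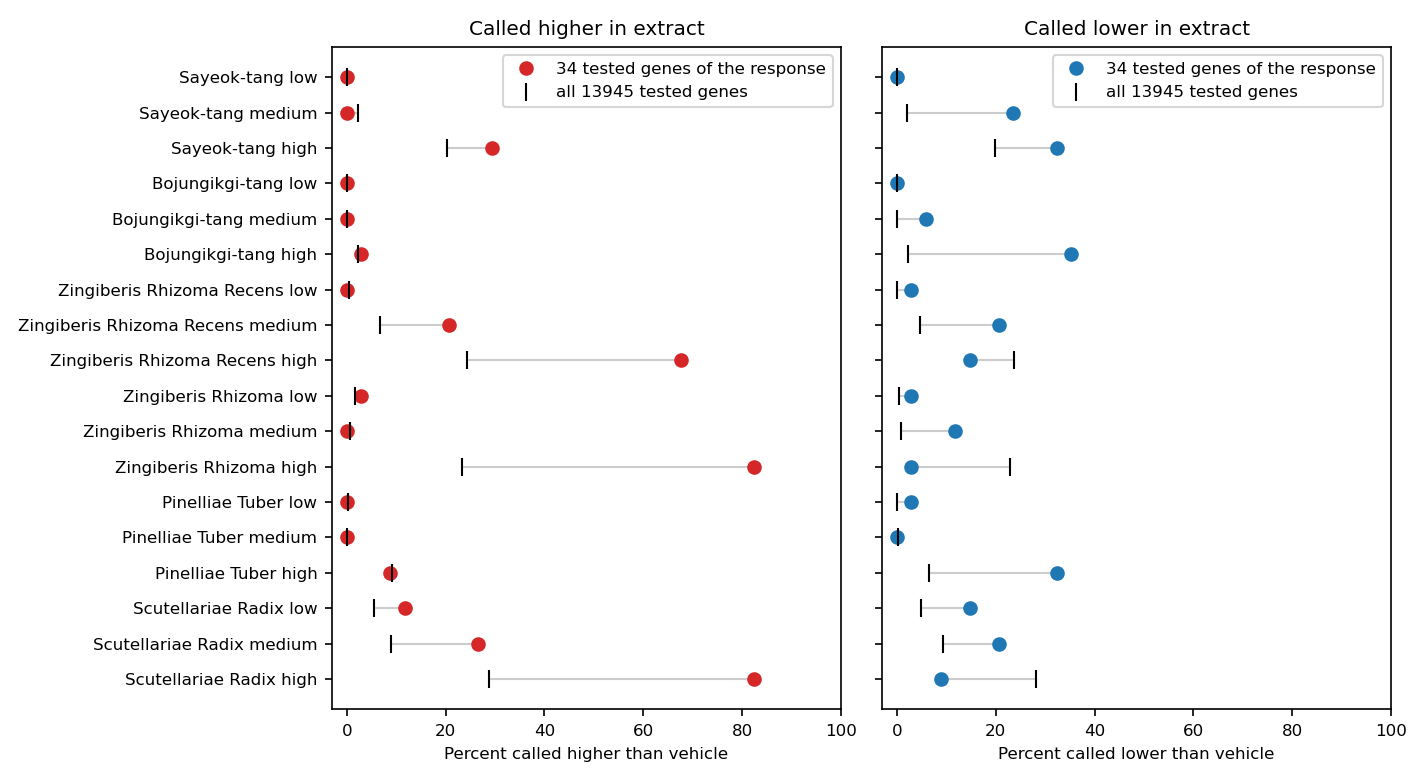
Percent of the 34 tested response genes called higher (left, red points) and lower (right, blue points) than vehicle in each replicated extract dose, with a black tick for the percent of all 13945 tested genes. The high doses of Scutellariae Radix and dried ginger reach 82.4% higher and fresh ginger 67.6%, and Bojungikgi-tang high is furthest above its tick on the lower side.

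High and low doses of the same extract, which lie within 1 code number, were also compared. Scutellariae Radix high was above low for 26 members and below for 4, while 27.2% of all tested genes were called higher and 28.5% lower. Dried ginger high was above low for 25 and below for 1, while 23.2% were called higher and 24.3% lower. Fresh ginger high was above low for 25 and below for 5, while 23.3% were called higher and 24.3% lower. PPP1R15A averaged 107 ± 8.4 CPM in Scutellariae Radix high, against 15.6 ± 0.69 CPM in Scutellariae Radix low (2.78 ± 0.067, adjusted p = 1.8e-33), and SESN2 76.7 ± 0.6 CPM, against 21.5 ± 1.4 CPM (1.83 ± 0.051). ALDH1L2 averaged 14.3 ± 0.85 CPM in dried ginger high, against 4.35 ± 0.095 CPM in dried ginger low (1.72 ± 0.12, adjusted p = 2.6e-16). ASNS averaged 72.7 ± 3.1 CPM in fresh ginger high, against 32.8 ± 0.71 CPM in fresh ginger low (1.15 ± 0.05, adjusted p = 1.2e-23). DDIT3 rose in Scutellariae Radix high over low (1.00 ± 0.073) and in dried ginger high over low (0.32 ± 0.087), and had an adjusted p of 0.093 in fresh ginger. SLC7A5 passed the test in none of these 3 comparisons.

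Sayeok-tang high was above low for 11 members and below for 10, while 18.4% of all tested genes were called higher and 19.3% lower. SLC6A9 averaged 11 ± 1 CPM in the high group, against 18.5 ± 0.11 CPM in the low group (-0.76 ± 0.068, adjusted p = 1.5e-12), and PPP1R15A 29.1 ± 2.1 CPM, against 18.1 ± 1.5 CPM (0.68 ± 0.07). Bojungikgi-tang high was above low for 0 and below for 5 members, while 0.81% were called higher and 0.875% lower. ASNS, NUPR1, TRIB3, CEBPG and PSAT1 made up the 5, led by ASNS (-0.47 ± 0.065, adjusted p = 3.9e-06). That count was 1 without the high library numbered 2 or the low library numbered 3, and 3 without the high library numbered 3. Pinelliae Tuber high was above low for 3 and below for 9 members, while 5.09% were called higher and 4.98% lower. TRIB3 averaged 107 ± 4.8 CPM in the high group, against 138 ± 5.2 CPM in the low group (-0.37 ± 0.043, adjusted p = 1.4e-08). The 12 called members became 7 without the second or without the third library of the low group.

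Coptidis Rhizoma had the highest levels of many members, from 1 library a dose and so without a replicate check or a test. A member is counted there when it lay at least 1.5-fold from the vehicle mean and outside the range of the 3 vehicle libraries. At the medium dose 24 of 34 members passed upward and 1 downward, while 10.4% of all tested genes passed upward and 10.8% downward, and the median member log2 ratio was 0.88. VLDLR had 18.6 CPM, against a vehicle mean of 2.71 CPM (6.86-fold), and ASNS 240 CPM, against 43.8 CPM (5.48-fold). ADM2 had 27 CPM, against 4.99 CPM (5.42-fold), ALDH1L2 18.5 CPM, against 4.23 CPM (4.38-fold), and CTH 38.2 CPM, against 8.9 CPM (4.29-fold). The member past the limit downward was ALDH18A1, with 171 CPM against 322 CPM in vehicle (0.53-fold). DDIT3 had 30.4 CPM, TRIB3 355 CPM and ATF4 483 CPM, against vehicle means of 12.4, 139 and 335 CPM. At the low dose 12 members passed upward and 0 downward, while 3.13% of all tested genes passed upward and 2.83% downward. ADM2 (2.7-fold), ASNS (2.35-fold), VLDLR (2.32-fold), DDIT4 (2.26-fold) and CTH (2.22-fold) were the highest of these, and the median log2 ratio was 0.41.

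In the single libraries of Zizyphi Fructus few members passed the same limits. At the high dose 1 passed upward and 2 downward, while 1.28% of all tested genes passed upward and 1.13% downward. At the medium dose 1 passed upward and 0 downward, while 1.25% and 1.33% of all tested genes did, and 2 did without the first vehicle library. At the low dose, in the library named above with those that stood apart, it was 1 upward and 1 downward, while 1.75% and 1.66% of all tested genes passed. CEBPB was the member that passed upward at each dose, with 63.1 CPM at the low, 42.8 CPM at the medium and 43.1 CPM at the high dose, against a vehicle mean of 27.2 CPM. Its mean was above that of the vehicle in all 23 extract groups, from 28.1 CPM in Bojungikgi-tang medium to 78.4 CPM in Coptidis Rhizoma medium. The spread of CEBPB was wide, with an SD of up to 12 CPM in a group, and it was called higher in 2 of the 18 replicated comparisons with vehicle. The vehicle libraries, which all these groups share, held 26.4, 24.8 and 30.4 CPM of it.

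Read gene by gene over the 18 replicated comparisons with vehicle, the members split into genes called 1 way and genes called both ways. STC2 was called higher in 7 and lower in 0, and ATF3, DDIT4, MTHFD2, SLC3A2 and SLC1A5 in 6 and 0. SLC6A9 was called higher in 1 and lower in 10, ALDH18A1 in 1 and 9, and SESN2 and GPT2 in 2 and 8. PSPH was called higher in 0 and lower in 7. Group means, called or not, were less one-sided for STC2, above the vehicle in 15 of the 23 extract groups and below it in 8. They lay above it in 1 and below it in 21 for ALDH18A1, in 3 and 20 for PSPH and in 4 and 19 for SLC6A9. These counts rest on the same 3 vehicle libraries. The share of all tested genes with such counts was not worked out, so they only describe the members. ATF4 was called higher in 3, those of Scutellariae Radix and the gingers at the high dose, and its mean lay above the vehicle in 9 of the 23 extract groups and below it in 14. SLC6A9 fell in the low dose of Scutellariae Radix (-0.33 ± 0.064) and its medium dose, and was 23.4, 21.9 and 22.3 CPM at the high dose, against 20.7, 18 and 21.5 CPM in vehicle (0.17 ± 0.062, adjusted p = 0.018). CHAC1, too low to test, had its highest mean values in Coptidis Rhizoma medium (0.365 CPM, 1 library) and Scutellariae Radix high (0.275 ± 0.073 CPM, SD, n = 3).

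The pathway's other genes, from lists kept apart from the members, were read in the same fits at the high dose. These lists too were chosen with earlier results of these data known, so their counts are no independent check of the members. Among further ATF4 targets, of which 15 were tested, 13 rose and 0 fell with Scutellariae Radix, 14 and 0 with dried ginger, 10 and 0 with fresh ginger, 7 and 2 with Sayeok-tang, 0 and 2 with Bojungikgi-tang and 2 and 0 with Pinelliae Tuber. Of all tested genes, 28.7% were called higher with Scutellariae Radix, 23.3% with dried ginger, 24.3% with fresh ginger, 20.3% with Sayeok-tang, 2.24% with Bojungikgi-tang and 9.14% with Pinelliae Tuber. Those called lower were 28.1% with Scutellariae Radix, 22.8% with dried ginger, 23.6% with fresh ginger, 19.9% with Sayeok-tang, 2.31% with Bojungikgi-tang and 6.57% with Pinelliae Tuber. The Pinelliae Tuber count lies near its share, and nothing is read from it. SLC7A11, the cystine importer, averaged 282 ± 18 CPM in Scutellariae Radix and 236 ± 2.3 CPM in dried ginger, against 49.9 ± 2 CPM in vehicle (2.50 ± 0.056 and 2.24 ± 0.06). GDF15, a secreted stress hormone, averaged 1058 ± 84 CPM in Scutellariae Radix and 787 ± 83 CPM in fresh ginger, against 166 ± 11 CPM in vehicle (2.68 ± 0.066 and 2.25 ± 0.065). In Sayeok-tang, where ASNS and TRIB3 did not pass the test, GDF15 rose by 1.52 ± 0.064 and SLC7A11 by 1.21 ± 0.057. The charging enzymes CARS1 and SARS1 rose by 0.91 ± 0.056 and 0.89 ± 0.038 in Scutellariae Radix. SLC7A11 and GDF15 are also known targets of other stress factors.

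Genes of the ATF6 and XBP1 arms, which answer to unfolded protein in the endoplasmic reticulum, went another way in Scutellariae Radix. Of 12 tested, 2 rose and 10 fell there, with a median of -0.31, while 28.7% of all tested genes were called higher and 28.1% lower, with a median of 0.01. HSPA5, the main chaperone of that compartment, averaged 1046 ± 29 CPM in Scutellariae Radix, against 1432 ± 13 CPM in vehicle (-0.45 ± 0.032, adjusted p = 1.1e-16). MANF (-0.59 ± 0.055), PDIA4 (-0.52 ± 0.027) and HERPUD1 (-0.49 ± 0.034) fell with it. In dried ginger 5 of the 12 rose and 2 fell, with DNAJB9 at 47.9 ± 1.1 CPM, against 26.4 ± 0.64 CPM in vehicle (0.86 ± 0.067). Fresh ginger raised 4 and lowered 6, Sayeok-tang raised 5 and lowered 2, Pinelliae Tuber raised 2 and lowered 1, and Bojungikgi-tang raised 0 and lowered 0. Over all tested genes the calls higher and lower were 23.3% and 22.8% in dried ginger, 24.3% and 23.6% in fresh ginger and 20.3% and 19.9% in Sayeok-tang. They were 9.14% and 6.57% in Pinelliae Tuber and 2.24% and 2.31% in Bojungikgi-tang. EDEM1, which sends misfolded protein for disposal, rose with both gingers (0.60 ± 0.052 in dried, 0.57 ± 0.047 in fresh). No test of 1 list against another was made.

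**Figure D5:**
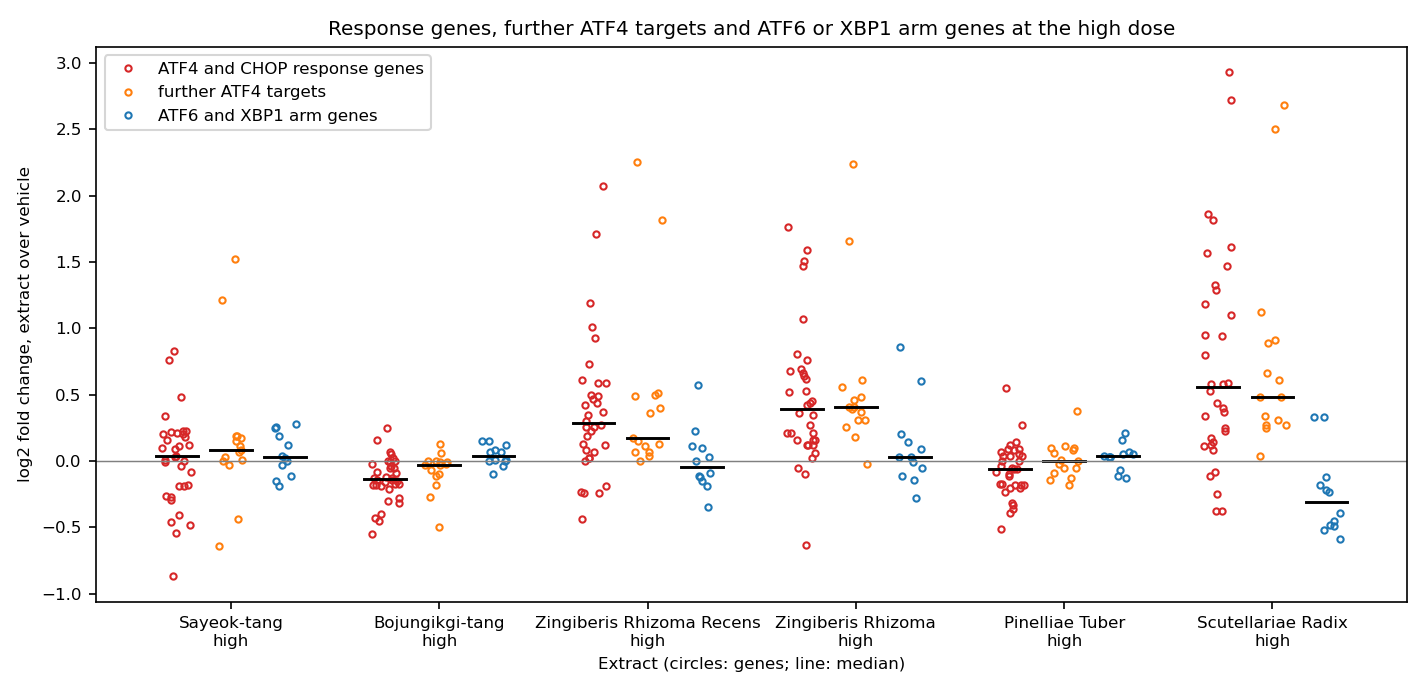
Log2 fold change over vehicle at the high dose for the ATF4 and CHOP response genes (red), further ATF4 targets (orange) and genes of the ATF6 and XBP1 arms (blue), with a line at each median. In Scutellariae Radix the first medians are 0.55 and 0.48 and the blue one is -0.31. In Bojungikgi-tang the red median is -0.14, and the orange and blue ones are -0.03 and 0.04. In Pinelliae Tuber the red median is -0.06 and the blue one 0.04, with the orange one between them.

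Kinases of eIF2 and its phosphatase regulators were called in both directions. Of 9 tested, 4 rose and 3 fell in Scutellariae Radix, 3 and 2 in dried ginger, 3 and 2 in fresh ginger, 2 and 2 in Sayeok-tang, 3 and 0 in Pinelliae Tuber and 0 and 0 in Bojungikgi-tang. Of all tested genes, 56.7% were called either way in Scutellariae Radix, 46.1% in dried ginger, 47.9% in fresh ginger, 40.2% in Sayeok-tang, 15.7% in Pinelliae Tuber and 4.55% in Bojungikgi-tang. The counts lie within 2 genes of those shares, and they are not read as a result about the list. PPP1R15B, the constitutive counterpart of PPP1R15A, rose by 0.41 ± 0.04 in fresh ginger and 0.30 ± 0.04 in Scutellariae Radix. EIF2AK4, the amino acid sensing kinase GCN2, rose by 0.16 ± 0.03 in Scutellariae Radix and fell by 0.30 on the log2 scale in dried ginger. Among 7 further serine, glycine and one carbon genes, 1 rose and 6 fell in Scutellariae Radix, 1 and 5 in dried ginger and 1 and 6 in fresh ginger, while 28.1%, 22.8% and 23.6% of all tested genes were called lower in those 3 extracts. MTHFD1L, which works beside MTHFD2 in mitochondria, rose by 0.70 ± 0.044 in Scutellariae Radix, 0.56 ± 0.049 in dried ginger and 0.38 ± 0.045 in fresh ginger. GLDC, of the glycine cleavage system, averaged 118 ± 0.93 CPM in Scutellariae Radix, 104 ± 4.3 CPM in dried ginger and 114 ± 0.68 CPM in fresh ginger, against 179 ± 1.9 CPM in vehicle, and fell in all 3 (-0.60 ± 0.038 in Scutellariae Radix and -0.78 ± 0.044 in dried ginger). The amino acid transporter SLC38A1 rose by 0.73 ± 0.041 in Scutellariae Radix, 0.87 ± 0.046 in dried ginger and 0.82 ± 0.041 in fresh ginger.

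Some counts could include reads of neighbours. Exons of 12 members overlap a gene on the other strand, and 4 overlap one on the same strand. The 12 are ALDH1L2, ATF5, CEBPB, DDIT3, DDIT4, MTHFD2, PYCR1, SHMT2, SLC1A5, SLC6A9, SLC7A5 and VLDLR. The 4 are ASNS, ATF5, DDIT3 and PYCR1. For DDIT3 the genes on the other strand are MARS and MBD6. Whether such reads entered the values given here was not tested. The library kit marks strand, but the strand setting of the counting is not given in the sources used here. Near-identical pseudogenes of ATF4, PSAT1, PSPH, MTHFD2 and SLC7A5 held at most 1.96 CPM in any library.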

How the data were processed

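Per the submitters' processing notes, the tools were FastQC 0.11.9, Trim Galore 0.6.5, STAR 2.7.3a and RSEM 1.3.3 on GRCh38. The values as deposited by the authors are expected counts per gene (75.3% of the nonzero ones whole), which were rounded. Genes reaching 1 CPM in 3 or more of the 58 libraries (13945) were scaled by TMM (factors 0.878 to 1.035) and tested, two-sided, by edgeR 4.0.16 quasi-likelihood in R 4.3.3 with 1 mean for each of 24 groups and Benjamini-Hochberg adjustment at 0.05. Replicates varied by 4.25% on this fit's common dispersion. Python 3.11.15, pandas 2.3.3 and matplotlib 3.10.9 made tables and figures. In 28 replicated comparisons the text names called members with at least 5 CPM in the higher group, up to 10 each way, and a panel (ATF4, DDIT3, TRIB3, CHAC1, ASNS, PSAT1, SLC7A5). The members and lists were chosen with earlier results of these data known. Libraries were not treated as paired, because in no comparison with 3 pairs did all same-numbered libraries correlate over 0.1 (r from -0.16 to 0.21 over all comparisons). Bojungikgi-tang high against low, with 2 libraries a group, had r = 0.12 for both pairs. These r values are equal by construction, because deviations from a mean of 2 libraries mirror each other. They count as 1 value, and the rule did not cover comparisons with 2 pairs. No library was a copy of another in its group (lowest replicate chi-square 2.18 per gene). Libraries of different groups, and the groups with 1 library, were not checked in this way. A further 209 columns were not used. Alternatives were RLE scaling, no filter, DESeq2 1.42.0, only the groups compared, a replicate block, fewer libraries and a 2-fold limit. The fit was also run on simulated counts in which few genes changed, in a single group. That run does not cover scaling where many genes change, as at the high doses here.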

Additional observations from a re-analysis of the deposited data

How the results depend on the processing

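Counts of called members kept within 1.5 times of their value in most repeats. Under RLE scaling fresh ginger low had 2 and Zizyphi Fructus medium 2. Without the filter Bojungikgi-tang low had 1, fresh ginger low 4, Pinelliae Tuber medium 2 and Pinelliae Tuber low 3. With only the groups compared, fresh ginger low had 4, dried ginger low 0, Pinelliae Tuber medium 1, Pinelliae Tuber low 0, Scutellariae Radix low 2, and Bojungikgi-tang high against low 1. Under DESeq2 Sayeok-tang low had 1. Without the 3 libraries that stand apart, fresh ginger low had 3 and dried ginger low 0. With the replicate number as a block, fresh ginger low had 2 called members, and of 294 gene values 1 call was lost, VLDLR in dried against fresh ginger (0.39, adjusted p = 0.055). The block changed no other of these gene calls, but it moved some counts by 1 member, as in fresh ginger high (29 called, against 28 without it). A 2-fold limit in place of 1.5-fold left 15 members in Coptidis Rhizoma medium, 6 in its low dose and 0, 0 and 1 in the high, medium and low dose of Zizyphi Fructus. For these shifts the cause was not tested.

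Leaving out each replicate in turn gave 4 to 7 called members for Sayeok-tang medium, 5 to 9 for Bojungikgi-tang high, 1 to 2 for Bojungikgi-tang medium, 9 to 11 for fresh ginger medium and 1 to 3 for its low dose. It gave 0 to 4 for dried ginger medium, 0 to 3 for its low dose, 0 to 1 for Pinelliae Tuber medium and 0 to 2 for its low dose. Between doses it gave 1 to 4 for Bojungikgi-tang and 7 to 10 for Pinelliae Tuber, and between the formulas 13 to 21. Zizyphi Fructus medium had 1 to 2 members past the limit. The counts for Scutellariae Radix and both gingers at the high dose stayed between 25 and 32.

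Of 3442 repeats of these 294 gene values, 3167 kept direction and side of the threshold, 257 lost the call with the direction kept, 5 gained it and 13 turned sign. Those 13 were uncalled values near 0. Leaving out replicates in turn moved ATF4 in Sayeok-tang high between -0.05 and 0.01, TRIB3 there between -0.03 and 0.01 (0.01 without the filter), SLC7A5 in fresh ginger high between -0.02 and 0.03 and in Pinelliae Tuber high between -0.02 and 0.01. Depth limits the lowest members, such as CHAC1.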
